A study of Sus scrofa with 3 samples.

Results

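The respiratory chain genes of pig kidney were followed across 3 pooled libraries. A gene was a member when its name marked it as a nuclear subunit of complexes I to V (NDUFA, NDUFB, NDUFC, NDUFS and NDUFV names with a number, SDHA to SDHD, and the UQCR, COX4 to COX8 and ATP5 names) or as 1 of the 13 proteins encoded by mitochondrial DNA. This rule took 74 of the 34570 genes listed, 61 nuclear and 13 mitochondrial, and used no measured value. The kidneys came from Chinese Wuzhishan Pigs aged 6 to 7 months. Every animal ate the high-fat, high-cholesterol (HFC) diet, so that no group on another diet was compared. IM stands for males left intact, CM for castrated ones, and CMT for castrated ones given testosterone. RNA of 3 pigs was pooled for each group before sequencing, which leaves 3 libraries from 9 pigs and no spread between pigs. The dose of testosterone and the time since castration are missing from the labels used here.

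The respiratory chain passes electrons from NADH (complex I) and succinate (complex II) through ubiquinone to complex III, cytochrome c and complex IV, and the proton gradient this builds drives ATP synthase (complex V). Mitochondrial DNA codes for core subunits of complexes I, III, IV and V and none of complex II, so every one of these complexes but II needs products of both genomes. In the kidney, tubule cells that reabsorb salt and solutes are rich in mitochondria. The heavy strand of mitochondrial DNA is transcribed as a long precursor that carries the 2 ribosomal RNAs first and CYTB last among its protein-coding genes, and the mature RNAs are cut from it. ND6 alone among the 13 is encoded on the light strand.

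The libraries held 16459771 (IM), 18503537 (CM) and 13601475 (CMT) counts. Levels are given as CPM, counts relative to the library's total after TMM scaling. A count of 0 allows up to 3 counts, between 0.159 and 0.227 CPM across the libraries. Each ratio between libraries is followed by its exact 95% interval, which covers counting error only, because reads are not independent molecules. With 1 library per group there is no test and no p-value, and no difference has a replicate check. Calls of higher or lower need the whole interval beyond 2-fold, or, by a smaller rule that suits these abundant genes, beyond 1.2-fold. All 13 mitochondrial and 59 of 61 nuclear members had a mean of at least 1 scaled CPM and were compared. The other two were NDUFA4L2, a paralogue of NDUFA4 known to be induced by hypoxia, with 2 (IM), 2 (CM) and 0 (CMT) counts, and COX8H, a form of subunit VIII, with 0, 0 and 2 counts.

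As whole sets, neither the mitochondrial nor the nuclear members differed between the libraries by more than a few percent. The 13 mitochondrial genes summed to 84047 CPM (IM), 86464 CPM (CM) and 86646 CPM (CMT). The CM-to-IM ratio of these sums was 1.029 (1.026 to 1.031), the CMT-to-CM ratio 1.002 (0.9997 to 1.004) and the CMT-to-IM ratio 1.031 (1.028 to 1.033). The nuclear members summed to 12857, 12687 and 12668 CPM in IM, CM and CMT, with ratios of 0.987 (0.981 to 0.993), 0.998 (0.992 to 1.005) and 0.985 (0.979 to 0.992) in the same order of comparisons. The intervals are narrow because the sums rest on many reads, and they say nothing of how far pools of other pigs would differ.

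The balance between the genomes can be read without any library scaling, as mitochondrial counts per nuclear count. This quotient was 6.54 in IM, 6.82 in CM and 6.84 in CMT. The quotient in CM was 1.04 (1.04 to 1.05) times that in IM, that in CMT was 1.004 (0.997 to 1.01) times that in CM, and that in CMT was 1.05 (1.04 to 1.05) times that in IM. The castrated libraries, with and without testosterone, thus lay together and slightly above the intact one. Within complex I the quotient was 3.62, 3.72 and 3.73 in IM, CM and CMT, and within complex IV it was 27.8, 29.3 and 28.7. Among complexes I, IV and V, complex V stood farthest apart, with 1.46, 1.67 and 1.54. Its CM-to-IM ratio was 1.145 (1.131 to 1.158) and its CMT-to-CM ratio 0.920 (0.909 to 0.932). There the mitochondrial subunits ATP6 and ATP8 summed to 7573, 8487 and 7750 CPM, while the nuclear ATP5 subunits summed to 5176, 5067 and 5028. The quotient was not computed for complex III, so that complex is not placed in this order. Its mitochondrial subunit CYTB was at 4392, 5349 and 5005 CPM in IM, CM and CMT. Its nuclear members UQCR10 and UQCRB summed to 88.1, 101 and 84.0 CPM. CMT was the lowest library for that sum but not for CYTB. The deposited table types all 13 mitochondrial genes as ncRNA, and whether the libraries selected polyadenylated RNA or removed ribosomal RNA was not given, so the quotient is compared between libraries only and its size is not interpreted.

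Individual mitochondrial genes moved in different directions beneath the stable sum. Between IM and CM the 13 ratios ran from 0.834 to 1.22, between CM and CMT from 0.846 to 1.11, and between IM and CMT from 0.855 to 1.15. None was called at 2-fold in any comparison, and CYTB was the only one called at 1.2-fold, in CM against IM. Of all 15472 compared genes, 2.71% (CM/IM), 2.95% (CMT/CM) and 1.5% (CMT/IM) were called at 2-fold, and 15.8%, 15.2% and 9.85% at 1.2-fold. For 9 (CM/IM), 11 (CMT/CM) and 12 (CMT/IM) of the 13, the whole interval lay inside 1.2-fold in both directions. This held for 17.2%, 16.05% and 19.0% of all compared genes, and for 50.4%, 49.2% and 61.8% of those with a mean of at least 50 CPM, a level that 12 of the 13 reached.

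**Figure D1:**
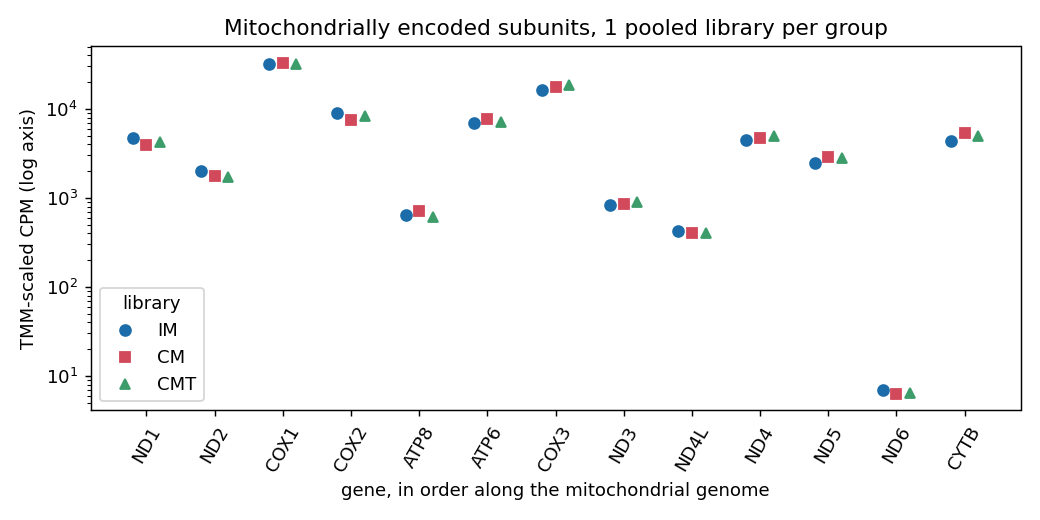
Scaled CPM (log axis) of the 13 mitochondrially encoded subunits in the pooled IM, CM and CMT libraries, 1 point per library, with genes in their order along the mitochondrial genome. The libraries lie close together at every gene, from 6.95 CPM at ND6 to 32075 CPM at COX1 in IM; levels are not corrected for gene length and are compared only within a gene.

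Gene order along the mitochondrial genome, taken from the RefSeq table of assembly Sscrofa11.1, was followed from ND1 to CYTB. ND1 and ND2, membrane subunits of complex I that lie nearest the ribosomal RNA genes, were at 4687, 3909 and 4211 CPM (ND1) and 2003, 1768 and 1712 CPM (ND2) in IM, CM and CMT. Their CM-to-IM ratios were 0.834 (0.826 to 0.842) and 0.883 (0.870 to 0.896). At the other end ND5, another membrane subunit of complex I, was at 2445, 2905 and 2816 CPM with a CM-to-IM ratio of 1.19 (1.17 to 1.204). CYTB, the cytochrome b of complex III, was at 4392, 5349 and 5005 CPM, a ratio of 1.22 (1.21 to 1.23) that was called at 1.2-fold. ND1 and ND2 were thus highest in IM, and ND5 and CYTB lowest in IM.

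Between these ends the order was not smooth. COX1, the catalytic subunit of complex IV, was at 32075, 33188 and 31959 CPM in IM, CM and CMT, with a CM-to-IM ratio of 1.035 (1.031 to 1.038). COX2, the subunit that takes electrons from cytochrome c, lies just after COX1 but had 8921, 7504 and 8302 CPM and a ratio of 0.841 (0.835 to 0.847). ATP8 and ATP6, membrane subunits of ATP synthase whose reading frames overlap, had ratios of 1.11 (1.08 to 1.14) and 1.12 (1.11 to 1.13). The CM library was therefore low at COX2 and high at its next neighbours. COX3, the third mitochondrial subunit of complex IV, was at 16225, 17388 and 18628 CPM, with a CM-to-IM ratio of 1.07 (1.07 to 1.08) and a CMT-to-IM ratio of 1.148 (1.142 to 1.154). ND3, ND4L and ND4, further complex I subunits, had CM-to-IM ratios of 1.01 (0.992 to 1.04), 0.9499 (0.919 to 0.981) and 1.06 (1.05 to 1.07). ND6 had only 115 (IM), 119 (CM) and 86 (CMT) counts, and its interval, 0.696 to 1.18 for CM against IM, is too wide to place it. The strand setting of the counting was not given, so reads where ND6 meets ND5 on the other strand cannot be told apart, and the same holds for the overlapping pairs ATP8 with ATP6 and ND4L with ND4.

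In CMT against CM the same genes gave other values, which share the CM library with the comparison above. ND1 had a CMT-to-CM ratio of 1.08 (1.07 to 1.09) and COX2 of 1.106 (1.098 to 1.115), while ATP8 had 0.846 (0.823 to 0.870), ATP6 0.919 (0.912 to 0.927) and CYTB 0.936 (0.927 to 0.945). In CMT against IM, ND2 was at 0.855 (0.840 to 0.869) and ND1 at 0.898 (0.889 to 0.908). ND5 was at 1.15 (1.14 to 1.17) and CYTB at 1.14 (1.13 to 1.15) in that comparison. The 2 mitochondrial ribosomal RNAs, 12S and 16S, which precede ND1, were at 565, 505 and 562 CPM and at 5908, 5329 and 6563 CPM in IM, CM and CMT. Their CM-to-IM ratios were 0.895 (0.869 to 0.921) and 0.902 (0.894 to 0.910), and their CMT-to-CM ratios 1.11 (1.08 to 1.15) and 1.23 (1.22 to 1.24). Both ribosomal RNAs were lowest in CM, as ND1 and COX2 were.

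ND1 and CYTB were also set against each other as CYTB counts per ND1 count, a quotient that needs no scaling. The pair was chosen after its values were seen and holds the lowest and the highest CM-to-IM ratio of the mitochondrial members. The quotient is therefore a description only. It was 0.937 in IM, 1.37 in CM and 1.19 in CMT. The CM quotient was 1.46 (1.44 to 1.48) times that of IM, and the CMT quotient was 0.869 (0.856 to 0.882) times that of CM and 1.27 (1.25 to 1.29) times that of IM. COX2 counts per COX1 count, also chosen after the values were seen, were 0.278, 0.226 and 0.260, with a CM-to-IM ratio of 0.813 (0.806 to 0.820).

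**Figure D2:**
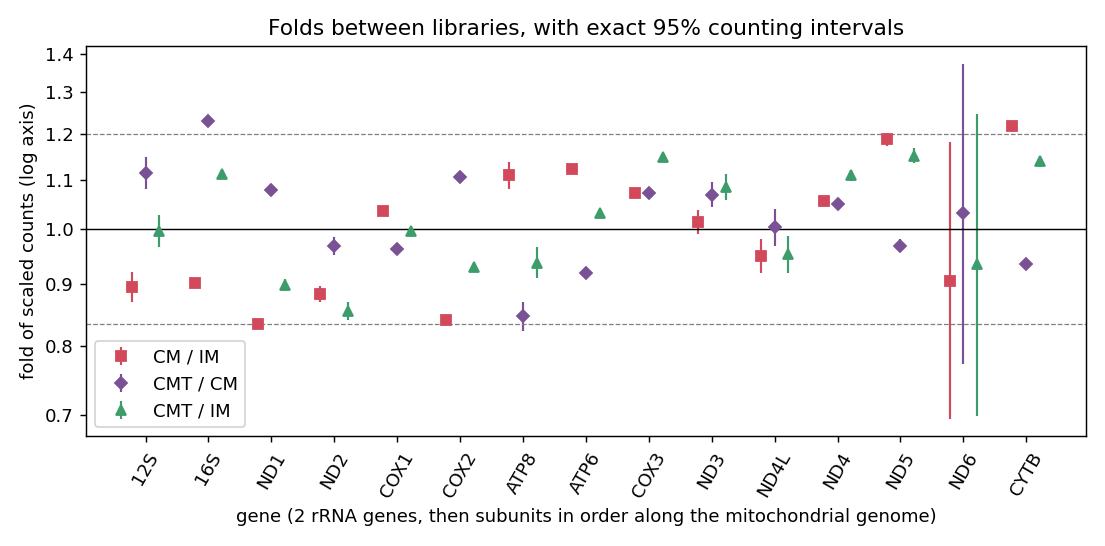
Ratio of scaled counts (log axis) for each pair of libraries, with exact 95% counting intervals, for the 12S and 16S ribosomal RNAs and then the 13 subunit genes in genome order; the dashed lines mark 1.2-fold. CM-to-IM points lie below 1 from 12S to ND2 and at COX2, ND4L and ND6, and reach 1.19 at ND5 and 1.22 at CYTB; the wide intervals at ND6 come from its low counts.

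In the comparison of castrated with intact kidney, most nuclear members stayed close to their intact level. None of the 72 compared members was called at 2-fold, where 2.71% of the 15472 genes compared were. At 1.2-fold 8 of the 72 were called, against 15.8% of all compared genes. Of these 5 were higher and 3 lower, against 7.59% of all compared genes higher and 8.25% lower. Among genes with a mean of at least 50 CPM, where the 1.2-fold rule is easier to pass, 6 of 57 members were called against 21.2% of 3363 genes. The median log2 ratio of the 59 nuclear members was -0.06 (quartiles -0.19 and 0.03), beside -0.01 (quartiles -0.23 and 0.22) for all compared genes. Of the nuclear members with a mean of at least 50 CPM, 28 of 45 had their whole interval inside 1.2-fold, a share of 62.2% against 50.4% of all genes at that level. The nuclear members called higher in CM were SDHA, COX7A1, ATP5J2 and ATP5G2, and those called lower were NDUFA6, COX7A2 and ATP5L.

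In the comparison of testosterone replacement with castration alone, 1 of the 72 members was called at 2-fold, ATP5J2, where 2.95% of all compared genes were and 1.11% in the same direction, lower. At 1.2-fold 3 of the 72 were called, against 15.2% of all compared genes. ATP5J was higher, and ATP5J2 and SDHB lower, against 8.17% of all compared genes higher and 6.99% lower. Among genes with a mean of at least 50 CPM, 2 of 57 members were called against 21% of all. The whole interval lay inside 1.2-fold for 36 of the 45 nuclear members with a mean of at least 50 CPM, 80.0%, against 49.2% of all genes at that level. In CMT against IM none of the 72 was called at 2-fold, where 1.5% of all compared genes were. At 1.2-fold 5 of the 72 were called, against 9.85% of all compared genes. ATP5G2 and NDUFC2 were higher, and ATP5J2, NDUFA6 and NDUFB8 lower, against 5.38% and 4.47% of all compared genes. With a mean of at least 50 CPM, 2 of 57 members were called against 10.7% of all, and 37 of 45 nuclear members lay wholly inside 1.2-fold, 82.2% against 61.8%.

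**Figure D3:**
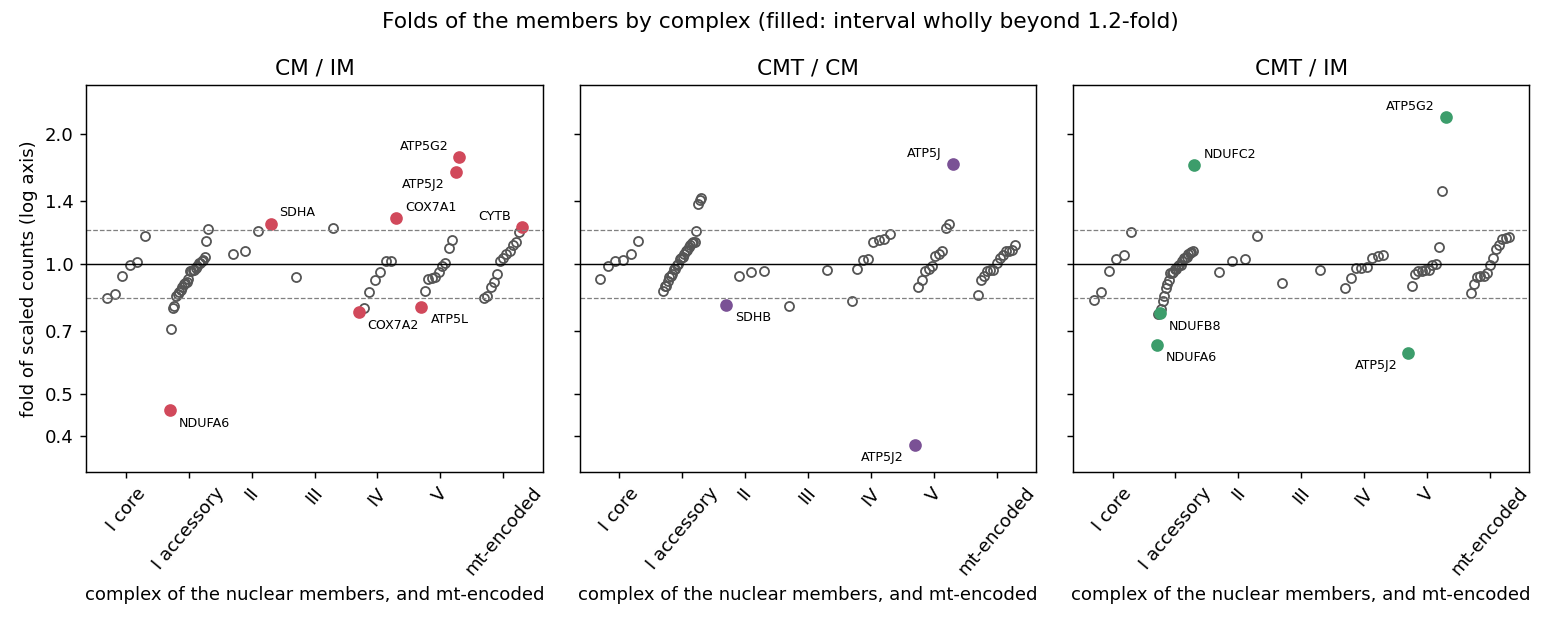
Ratio of scaled counts (log axis) of each compared subunit, in 3 panels for CM/IM, CMT/CM and CMT/IM; nuclear subunits are grouped by complex, the mitochondrially encoded ones stand at the right, and ATP5S is not drawn. Filled points, labelled by gene, have their interval wholly beyond 1.2-fold (dashed lines); most open points lie between the lines, and ATP5J2 in CMT/CM is the farthest from 1.

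Complex I was represented by 6 nuclear core subunits, which carry the flavin and iron-sulfur centres, and 26 accessory subunits, which surround them. None of the core subunits was called in any comparison. NDUFV1, which holds the flavin where NADH is oxidised, was at 370, 373 and 380 CPM in IM, CM and CMT, and NDUFS1, the largest iron-sulfur subunit, at 212, 198 and 183 CPM. NDUFS7 had the highest CM-to-IM ratio of the core, 1.16 (1.11 to 1.22), and NDUFS3 the lowest, 0.835 (0.786 to 0.887). In CMT against CM, NDUFS8 had the highest ratio of the core, 1.13 (1.08 to 1.19), and NDUFS1 the lowest, 0.922 (0.876 to 0.971). The core subunits summed to 1435, 1402 and 1437 CPM.

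The accessory subunits of complex I summed to 2671, 2506 and 2582 CPM in IM, CM and CMT. Of these 19 of 26 had a CM-to-IM ratio below 1, beside 7846 of all 15472 compared genes. Their median log2 ratio was -0.09, beside -0.01 for all compared genes. NDUFA10, the accessory subunit with the most counts before any correction for length, was at 332, 328 and 353 CPM. NDUFA6, a small accessory subunit of the LYR protein family, departed most. It was at 27.4, 12.5 and 17.8 CPM from 454, 237 and 236 counts, so IM was high and CM lowest. Its CM-to-IM ratio was 0.457 (0.389 to 0.536), called at 1.2-fold but not at 2-fold, and its CMT-to-IM ratio 0.650 (0.553 to 0.763) was called lower as well. Its CMT-to-CM ratio was 1.42 (1.18 to 1.71), not called. NDUFC2, a subunit of the membrane arm, was at 12.9, 15.5 and 21.8 CPM, highest in CMT, and was called higher in CMT than in IM at 1.69 (1.41 to 2.03). NDUFB8, also of the membrane arm, was at 166, 131 and 127 CPM, with a called CMT-to-IM ratio of 0.768 (0.722 to 0.816) and a CM-to-IM ratio of 0.791 (0.748 to 0.835) that fell just short. NDUFS4 had the lowest CMT-to-CM ratio of the accessory subunits, 0.863 (0.758 to 0.982).

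Complex II, succinate dehydrogenase, is the one complex built from nuclear genes alone and also an enzyme of the tricarboxylic acid cycle. Its 4 genes had CM-to-IM ratios from 1.05 to 1.24 and CMT-to-CM ratios from 0.803 to 0.961, with the CM library as the shared term. They summed to 1416, 1615 and 1472 CPM in IM, CM and CMT, a CM-to-IM ratio of 1.14 (1.12 to 1.16) and a CMT-to-CM ratio of 0.912 (0.895 to 0.928). SDHA, the flavoprotein that oxidises succinate, was at 370, 459 and 430 CPM and was called higher in CM than in IM at 1.24 (1.2001 to 1.28). SDHB, the iron-sulfur subunit, was at 360, 431 and 346 CPM and was called lower in CMT than in CM at 0.803 (0.774 to 0.832). Each of the 2 calls rests on the edge of the rule: that of SDHA was lost with TMM factors computed without mitochondrial and ribosomal RNA genes and after thinning to the smallest library, and that of SDHB with median-of-ratios size factors and after thinning. The membrane anchors SDHC, at 538, 567 and 545 CPM, and SDHD, at 147, 158 and 151 CPM, were not called.

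Complex III was represented by UQCR10 and UQCRB, small subunits, beside the mitochondrial CYTB. UQCR10 was at 69.4, 84.1 and 67.2 CPM in IM, CM and CMT, with a CM-to-IM ratio of 1.21 (1.12 to 1.31) and a CMT-to-CM ratio of 0.799 (0.735 to 0.868), neither called. UQCRB was at 18.7, 17.4 and 16.8 CPM. CYTB and UQCR10 were highest in CM and UQCRB was not. UQCRC1, UQCRFS1 and CYC1 were not analysed here.

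Complex IV, cytochrome c oxidase, reduces oxygen to water, and several of its nuclear subunits exist as tissue isoforms. Its 9 nuclear members, NDUFA4 included, which is now counted to this complex despite its name, summed to 2059, 1984 and 2049 CPM in IM, CM and CMT. COX5B and COX6A1 hardly differed, at 455, 462 and 448 CPM and at 401, 408 and 418 CPM. NDUFA4 was at 329, 302 and 339 CPM. The paralogues COX7A1 and COX7A2, alternative forms of subunit VIIa, departed in opposite directions. COX7A1, the form known from heart and skeletal muscle, was at 131, 167 and 137 CPM and was called higher in CM than in IM at 1.28 (1.21 to 1.35), a call that was lost after thinning to the smallest library (1.25). COX7A2, the form found in most tissues, was at 172, 133 and 152 CPM and was called lower in CM than in IM at 0.772 (0.731 to 0.814).

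CM was thus the highest library for COX7A1 and the lowest for COX7A2. COX7A1 counts per COX7A2 count need no scaling, but the pair was chosen after its values were seen and holds the highest and the lowest CM-to-IM ratio of the complex, so the quotient is a description only. It was 0.759, 1.26 and 0.905 in IM, CM and CMT. The CM quotient was 1.65 (1.53 to 1.79) times that of IM, and the CMT quotient was 0.720 (0.663 to 0.783) times that of CM. These are related genes, and how the authors assigned reads shared between them was not given. The 8 striated muscle markers summed to 29.4, 23.2 and 23.7 CPM in IM, CM and CMT, with MB at 0 counts in every library and MYH2 at 0, 1 and 0 counts, while the 5 smooth muscle markers summed to 548, 486 and 455 CPM. Of the smooth muscle markers 3 were called lower in CM than in IM at 1.2-fold, against 8.25% of all compared genes. SMTN of the same list, named after its values were seen, was at 72.5, 91.9 and 81.8 CPM. Its CM-to-IM ratio was 1.27 (1.18 to 1.37), not called. The part of muscle cells in the COX7A1 values was not tested. COX6C had the highest CMT-to-CM ratio of the complex, 1.17 (1.06 to 1.29). COX4I1, COX4I2, COX5A, COX6A2 and COX8A were not analysed here.

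**Figure D4:**
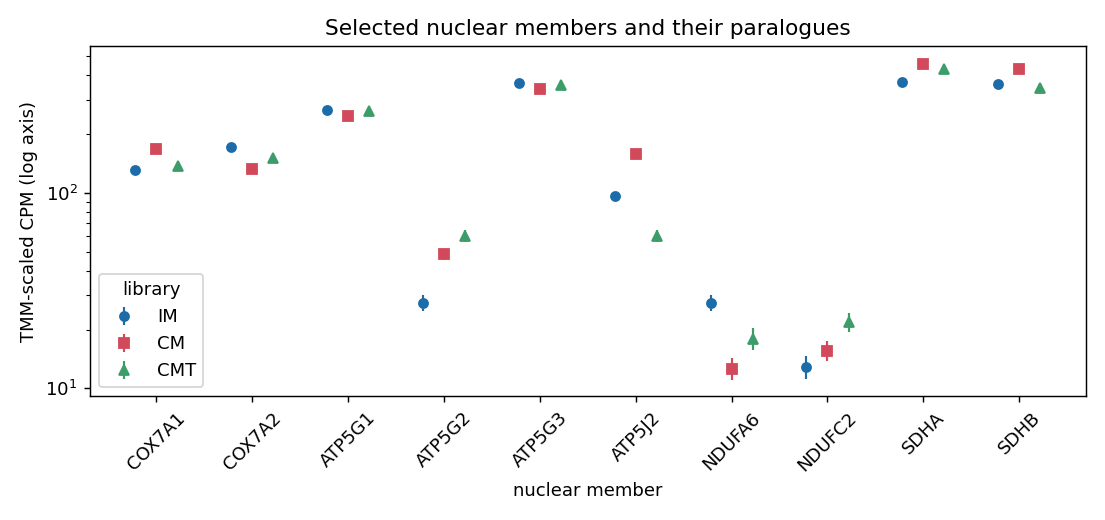
Scaled CPM (log axis) of 10 nuclear members in the IM, CM and CMT libraries, with exact 95% Poisson intervals that are mostly smaller than the points. COX7A1 is highest and COX7A2 lowest in CM, ATP5G2 is at 27.5 CPM in IM and 60.2 CPM in CMT while ATP5G1 and ATP5G3 keep nearly the same level, and ATP5J2 is highest in CM (158 CPM) and lowest in CMT (60.1 CPM).

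Complex V, the ATP synthase, held the members farthest from 1 in CMT against CM (ATP5J2) and in CMT against IM (ATP5G2), while in CM against IM that was NDUFA6 of complex I. ATP5B and ATP5A1, the beta and alpha subunits of its catalytic head, were at 1954, 1872 and 1853 CPM and at 1234, 1144 and 1195 CPM in IM, CM and CMT, and neither was called. ATP5J2, the f subunit of the membrane part, had 1602, 2984 and 795 counts, or 96.8, 158 and 60.1 CPM. It was called higher in CM than in IM at 1.63 (1.53 to 1.73), lower in CMT than in CM at 0.3805 (0.3514 to 0.4116), which is beyond 2-fold, and lower in CMT than in IM at 0.621 (0.569 to 0.676). CM was the highest and CMT the lowest library for this gene, so that the treated castrates lay on the far side of the intact level. ATP5L, the g subunit of the membrane part, was at 238, 189 and 230 CPM. It was called lower in CM than in IM at 0.794 (0.759 to 0.831), a call lost with total-count scaling (0.807) and with median-of-ratios size factors (0.797). ATP5J, coupling factor 6 of the peripheral stalk, was at 10.4, 8.99 and 15.3 CPM and was called higher in CMT than in CM at 1.71 (1.38 to 2.10).

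The c subunit of ATP synthase, which forms its rotating ring, is encoded by ATP5G1, ATP5G2 and ATP5G3, whose mature proteins are the same and whose import sequences differ. ATP5G1 was at 264, 247 and 264 CPM and ATP5G3 at 368, 339 and 357 CPM in IM, CM and CMT. ATP5G2 had 455, 918 and 797 counts, or 27.5, 48.6 and 60.2 CPM, lower in IM than in both castrated libraries. It was called higher in CM than in IM at 1.77 (1.58 to 1.98) and in CMT than in IM at 2.19 (1.95 to 2.46), and its CMT-to-CM ratio was 1.24 (1.13 to 1.36), not called. ATP5G2 counts per ATP5G1 count, a quotient chosen after its values were seen, were 0.104, 0.197 and 0.228, and the CM quotient was 1.89 (1.68 to 2.14) times that of IM. ATP5G2 differed between intact and castrated libraries and was not nearer to IM in the library with testosterone. Reads of such closely related genes may have been split or shared by the counting. ATP5S, a coupling factor that is not a structural subunit, was at 12.7, 11.4 and 15.0 CPM.

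The rule works on the names in the deposited table, and 6 further rows with numbered identifiers match it once their symbols are looked up. They were ATP5C1, ATP5D and ATP5O of the ATP synthase, ATP5SL, and NDUFB6 and NDUFV3 of complex I. ATP5D, the delta subunit, had 3909 (IM), 5506 (CM) and 3302 (CMT) counts and a CM-to-IM ratio of 1.23 (1.18 to 1.29), not called. ATP5SL was the only one of the 6 called, lower in CMT than in CM at 0.714 (0.6185 to 0.823) and than in IM at 0.580 (0.503 to 0.667). Both genes are named after their values were seen. With these rows the median log2 ratio of the nuclear members was -0.06 (CM/IM), 0.03 (CMT/CM) and -0.04 (CMT/IM).

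Genes that carry electrons between the complexes, assemble them or express the mitochondrial genome were counted by lists, with calls at 1.2-fold. None of the list members was called at 2-fold, where 2.71% (CM/IM), 2.95% (CMT/CM) and 1.5% (CMT/IM) of all compared genes were. Of all compared genes, the shares called at 1.2-fold were 7.59% higher and 8.25% lower (CM/IM), 8.17% higher and 6.99% lower (CMT/CM), and 5.38% higher and 4.47% lower (CMT/IM). CYCS, TFAM, LRPPRC, ESRRA and NRF1 were fixed as landmarks of the pathway, and the other genes are named because few were called, after their values were seen. Of 26 compared assembly factors, 1 was called higher in CM than in IM, FOXRED1, a complex I factor, at 1.34 (1.25 to 1.44), and 1 lower, NDUFAF6, at 0.602 (0.433 to 0.832). For CMT/CM, 1 was called higher, NDUFAF6 at 1.77 (1.27 to 2.49), and 2 lower, FOXRED1 at 0.675 (0.623 to 0.731) and NDUFAF7 at 0.594 (0.459 to 0.764). NDUFAF7 was lower in CMT than in IM too, at 0.629 (0.482 to 0.816). The list had median log2 ratios of -0.02 in CM against IM and 0.00 in CMT against CM.

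Of 15 compared genes of electron carriers and coenzyme Q synthesis, CM against IM gave 2 called higher and 2 called lower, against 7.59% and 8.25% of all compared genes. CYCS, the cytochrome c that links complexes III and IV, was at 87.2, 59.8 and 73.1 CPM in IM, CM and CMT and was called lower in CM than in IM at 0.687 (0.635 to 0.743); its CMT-to-CM ratio was 1.22 (1.12 to 1.33), not called. PDSS1, which makes the side chain of coenzyme Q, was the other called lower, at 0.649 (0.510 to 0.824). ETFB, a subunit of the flavoprotein that passes electrons from fatty acid oxidation, was called higher at 1.296 (1.24 to 1.35), with 205, 266 and 218 CPM. COQ3, a coenzyme Q methyltransferase, had only 57, 118 and 35 counts. It was called higher in CM than in IM at 1.81 (1.31 to 2.53) and lower in CMT than in CM at 0.424 (0.282 to 0.622). COQ10B, another coenzyme Q gene, was called higher in CMT than in CM at 1.53 (1.296 to 1.80). The list thus had members on either side, with median log2 ratios of 0.01 in CM against IM and -0.09 in CMT against CM.

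Of 7 compared genes that copy and transcribe mitochondrial DNA, none was called in CM against IM, with ratios from 1.03 to 1.38 and a median log2 ratio of 0.17. In CMT against CM 2 were called lower, where 6.99% of all compared genes were, with ratios from 0.627 to 0.945 over the 7 and a median log2 ratio of -0.45, beside -0.004 for all compared genes. TFAM, which packages mitochondrial DNA and starts its transcription, was at 12.5, 13.4 and 8.39 CPM in IM, CM and CMT, with a CMT-to-CM ratio of 0.627 (0.497 to 0.786). SSBP1, the mitochondrial single-strand binding protein, was at 15.7, 18.0 and 11.6 CPM, with a ratio of 0.645 (0.530 to 0.782). CMT was the lowest library for both. The summed mitochondrial transcripts in CMT were 1.002 times those in CM, and their relation to TFAM and SSBP1 was not tested. POLRMT was not analysed here.

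Of 14 genes of mitochondrial RNA processing and decay, PTCD2 was the only one called in CM against IM, where 15.8% of all compared genes were, higher at 1.66 (1.299 to 2.13). In CMT against CM, PTCD2 at 0.586 (0.446 to 0.764) and KIAA0391, a subunit of mitochondrial RNase P, at 0.514 (0.318 to 0.808) were called lower. The list's median log2 ratio in that comparison was -0.15. FASTKD5 was called lower in CMT than in IM at 0.666 (0.581 to 0.763). LRPPRC, which stabilises mitochondrial messenger RNAs, was at 77.7, 71.5 and 67.1 CPM and was not called. None of 10 regulators of mitochondrial biogenesis was called in any comparison, against 15.8% (CM/IM), 15.2% (CMT/CM) and 9.85% (CMT/IM) of all compared genes. ESRRA, a nuclear receptor that activates respiratory chain genes, was at 113, 110 and 130 CPM in IM, CM and CMT, and NRF1, a transcription factor of nuclear respiratory genes, at 2.96, 1.90 and 1.81 CPM. PPARGC1A was not analysed here. Of 13 tricarboxylic acid cycle genes outside complex II, 1 was called higher in CM than in IM, SUCLG2 at 1.36 (1.29 to 1.43), and 1 higher in CMT than in CM, DLST at 1.275 (1.23 to 1.32), and the list's median log2 ratio was -0.06 in each of these comparisons. SUCLA2 was called lower in CMT than in IM at 0.694 (0.636 to 0.757). The values of SDHA and SDHB in CM were thus not shared by that list as a whole.

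Markers of kidney cell types stand beside these values, because in pooled tissue fewer cells of a type and less RNA per cell cannot be told apart. The 11 proximal tubule markers in the table summed to 17165, 18360 and 17751 CPM in IM, CM and CMT, with 0 called higher and 3 lower at 1.2-fold in CM than in IM. The 5 thick ascending limb markers summed to 6887, 7918 and 9188 CPM, lowest in IM, mostly through UMOD at 5715, 6907 and 7978 CPM. In CM against IM 3 of the 5 had a ratio above 1 and 2 below. At 1.2-fold 0 were called higher and 1 lower, EGF at 0.710 (0.690 to 0.731), against 7.59% and 8.25% of all compared genes. Intercalated cell markers summed to 605, 878 and 598 CPM, mostly through ATP6V1B1, while SLC26A4 of the same list was lower in CM than in IM beyond 2-fold at 0.247 (0.209 to 0.289). Distal convoluted tubule markers summed to 118, 94.0 and 111 CPM, collecting duct principal cell markers to 471, 450 and 447 (AQP4 at 0), and podocyte markers to 303, 333 and 358. Endothelial markers summed to 441, 405 and 415 CPM, fibroblast markers to 823, 705 and 673, and leukocyte markers to 44.3, 66.7 and 58.7. Erythroid markers summed to 121, 141 and 181 CPM, and adipocyte markers to 14.6, 7.30 and 10.3 (ADIPOQ and LEP at 0). SLC4A1, at 64.0, 68.7 and 83.5 CPM in IM, CM and CMT, counts in both the erythroid and the intercalated cell sums. The summed proximal tubule, intercalated cell and leukocyte markers were highest in CM, as complex II and CYTB were. Their part in the values of the members was not tested.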

How the data were processed

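Kidney RNA of 3 groups was measured as 1 pooled library each. The authors deposited raw counts per gene. FastQC is the only tool in the submitters' processing notes. Aligner, counting program, strand setting, build and annotation are not given in the sources used here, and the labels name an Ion Torrent library kit while the design text names an Illumina sequencer and sequencing in triplicate. The table holds 1 count column per group, and no source used here says whether it sums repeat runs. The table's 2 unnamed columns, with 4 values, were not used. Reads of near-identical copies, such as nuclear pseudogenes of these subunits and of mitochondrial DNA, may have been shared or lost.

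Counts were scaled with TMM (edgeR 4.0.16, R 4.3.3), with factors of 1.01, 1.02 and 0.973 in IM, CM and CMT. Ratios have Clopper-Pearson intervals, and quotients of 2 sums or genes have exact conditional odds-ratio intervals (scipy 1.17.1), both tested on simulated counts. Log2 ratios used a prior count of 2. Of 19902 numbered identifiers, 1556 received a symbol from the RefSeq table of Sscrofa11.1, used for names and gene order only.

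The members and gene lists were chosen with earlier results of these data known. Named were all mitochondrial members, members called at 2-fold, in each complex the most abundant member and those with the extreme ratios in CM against IM and CMT against CM, and fixed landmark genes; members called at 1.2-fold were named after their values were seen.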

Additional observations from a re-analysis of the deposited data

How the results depend on the processing

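Every set value and count was recomputed with total-count scaling, median-of-ratios size factors (DESeq2 1.42.0), TMM factors without mitochondrial and ribosomal RNA genes, no minimum, a mean of at least 10 scaled CPM, and thinning to the smallest library; adding the 6 looked-up rows was chosen after seeing the data. Of the recomputed values set apart as headline values, 140 held and 7 did not. A ratio held if it kept its side of the 1.2-fold rule, and a median if it moved by less than its counting error. A count held if it stayed within 1.5 times. Of the other recomputed values, 599 were labelled the same, 6 stronger and 7 weaker. With total-count scaling the members called at 1.2-fold in CMT against CM went from 3 to 6, and the median log2 ratio of the mitochondrial members was 0.0715 (CM/IM), -0.0650 (CMT/CM) and -0.0531 (CMT/IM). With the higher minimum, which drops ND6, these medians were 0.0638, -0.0200 and 0.0195, where the main values are 0.05, 0.01 and -0.01; these small medians thus take either sign in the comparisons with CMT. Total-count scaling also turned the direction of 3, 10 and 8 of 72 members in the 3 comparisons, all of them uncalled. Median-of-ratios size factors turned 0, 2 and 5 of the 72, likewise uncalled. No paired analysis was possible because each group has 1 library. No library could be left out for the same reason. ND6, COQ3, KIAA0391 and NRF1 are limited by low counts.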
